A study of Homo sapiens with 12 samples.

Results

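The extracellular matrix genes described here are 48 genes for collagens, laminins, elastic fibre proteins, glycoproteins, proteoglycans, matrix proteases with their inhibitors, and the enzymes that fold and crosslink collagen. Each gene was taken by name, and a gene was represented by 1 probe set, the brightest on average among those that the array annotation gives to that gene alone. All 48 had such a probe set, out of 11963 genes that did, and 45 of them were bright enough to be tested, out of 8124 genes. COL16A1 (a collagen of fibril surfaces), ELN (elastin) and LUM (lumican, a collagen-binding proteoglycan) were too dim, with signals no higher than 49.5 on any array, and are not counted below.

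The matrix is the network of secreted proteins that surrounds cells. Fibrillar collagens give it strength, laminins, type IV collagen and nidogens form the sheet-like basement membrane that encloses each muscle fibre, and fibronectin and tenascin C are adhesive proteins that change when tissue forms or heals. Lysyl oxidases crosslink collagen and elastin outside the cell, while metalloproteases such as MMP2 and MMP14 cut matrix proteins and are held back by the TIMP inhibitors.

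RNA came from RD cells, a line from an embryonal rhabdomyosarcoma, which is a tumour of cells committed to skeletal muscle. The 4 groups were cells labelled PAX3-FKHR-ER with 4-OHT, cells labelled PAX3-FKHR-ER without 4-OHT, cells labelled pK1 with 4-OHT, and cells labelled pK1 without 4-OHT, with 3 arrays each. PAX3-FKHR is the fused transcription factor of alveolar rhabdomyosarcoma; here it was joined to a modified ligand-binding domain of the oestrogen receptor, so that 4-hydroxytamoxifen (4-OHT, 30 nM, for 24 h) switches it on, and pK1 is the empty vector. All groups were grown in the same medium with serum. The design text speaks of transduced populations, and no clone is named. In a whole culture, fewer cells of a type and less RNA per cell cannot be told apart.

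The values were signals from 1 Affymetrix U133A array per sample, a linear brightness scaled to a common level by the authors, with array medians of 50.4 to 62.8. The 4 arrays of replicate 1 stood apart from the other 8: their poly-A spike-in controls had median signals of 2.58 to 7.41, against 118 to 291 on the others, and their log2 signals correlated at 0.815 to 0.869 with the others. PAX3 itself, whose probe set was brighter on arrays labelled PAX3-FKHR-ER in replicates 2 and 3, went against the labels in replicate 1 without 4-OHT, with signals of 17.6, 98.9 and 105 on the PAX3-FKHR-ER arrays without 4-OHT, against 49.4, 41.5 and 30.6 on the pK1 arrays without 4-OHT. With 4-OHT it had 58.9, 92.7 and 73.1 on PAX3-FKHR-ER arrays, against 57.8, 41.5 and 50 on pK1 arrays, nearly level in replicate 1. Tests were therefore run on 12 arrays and on the 8 arrays of replicates 2 and 3. Over 12 arrays without a block every tested matrix gene had a limma adjusted p of 1 in all 5 comparisons, so most genes are given below by their signals on all arrays and their test on the 8. As a check of RD identity, 8 genes listed for the muscle lineage were read, of which 5 were past the signal filter. The summed signals of the 8 were 7240 to 10800 on PAX3-FKHR-ER arrays and 4870 to 10300 on pK1 arrays. MYF5, MYF6 and PAX7 were under the filter. VIM was the brightest of the list on every array, with 3650 to 6700, so the sums alone cannot check muscle identity. MYOD1 had 197 and 222 in pK1 replicate 2 (with and without 4-OHT), against 1010 to 1910 on PAX3-FKHR-ER arrays. CHRNA1 and DES were also dim in pK1 replicate 2. The number of arrays limits the precision, and p-values measure the spread between these samples, which the labels do not tie to separate cultures.

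Signals are linear. Changes and differences are on the log2(signal + 16) scale, as with 4-OHT minus without, or PAX3-FKHR-ER minus pK1, and understate the change of dim genes. Tests were limma's moderated tests over 13329 probe sets with Benjamini-Hochberg adjusted p held against 0.05. The fit called paired below compares the 2 arrays of the same construct and replicate number, or arrays of the same number between constructs, within replicates 2 and 3.

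In cells labelled PAX3-FKHR-ER, 3 matrix genes passed the threshold for 4-OHT, all of them in the paired fit and none with 12 arrays. Their promoters, the 250 bases before the RefSeq start of each gene on GRCh38.p14, are printed because the switched protein is a DNA-binding factor. Capitals mark ATTA or TAAT, the core letters that homeodomains bind, and GTCAC or GTGAC, core letters of paired-domain sites, on either strand. They also mark TATAAA or TTTATA, a single spelling of the TATA box, and no other spelling was searched. TNC lies at chr9:115118158-115118407 on the minus strand, FN1 at chr2:215436069-215436318 on the minus strand and LOXL1 at chr15:73926212-73926461 on the plus strand.
TNC: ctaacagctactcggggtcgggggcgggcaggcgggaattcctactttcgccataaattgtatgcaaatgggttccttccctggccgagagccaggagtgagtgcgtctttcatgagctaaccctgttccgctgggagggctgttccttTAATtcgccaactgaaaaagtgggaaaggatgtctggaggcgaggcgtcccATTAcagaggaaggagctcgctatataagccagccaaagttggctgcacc
FN1: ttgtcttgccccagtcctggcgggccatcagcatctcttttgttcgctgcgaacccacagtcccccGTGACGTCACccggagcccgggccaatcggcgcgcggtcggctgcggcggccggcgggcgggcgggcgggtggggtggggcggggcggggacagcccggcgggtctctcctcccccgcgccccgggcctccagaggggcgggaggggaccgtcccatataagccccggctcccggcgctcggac
LOXL1: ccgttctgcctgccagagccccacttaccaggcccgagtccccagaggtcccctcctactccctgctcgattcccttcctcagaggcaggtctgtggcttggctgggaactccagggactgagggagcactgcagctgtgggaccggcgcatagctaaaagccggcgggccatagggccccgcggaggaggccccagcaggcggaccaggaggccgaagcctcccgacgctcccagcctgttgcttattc
The TNC window held 2 matches to the homeodomain core, the FN1 window held 2 adjoining matches to the paired-domain core that share no base, and the LOXL1 window held none of the motifs. Of 37 members with a RefSeq window, 15 held the homeodomain core (40.5%, against 48.2% of 27305 windows of the same length) and 7 held the paired-domain core (18.9%, against 37.7%). The TATA box spelling searched was in 4 (10.8%, against 11.1%). These are matches of letters and say nothing of binding.

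Among the adhesive glycoproteins, TNC was lower and FN1 higher when PAX3-FKHR-ER cells had 4-OHT, each about 2-fold in replicates 2 and 3. TNC encodes tenascin C, a large matrix protein that loosens cell adhesion and is plentiful in embryonic and healing tissue. TNC had signals of 448, 252 and 331 on PAX3-FKHR-ER arrays with 4-OHT (replicates 1, 2 and 3), against 507, 580 and 711 without it. All 3 values with 4-OHT lay below all 3 without it, and the gap was small in replicate 1. The share of all genes with such a separation was not counted. In replicates 2 and 3 the mean was 292 ± 56.2 with 4-OHT, against 645 ± 92.8 without (SD, n = 2 each). TNC fell in the paired fit, by 1.11 ± 0.12 log2 units (SE; limma adjusted p = 0.00808), while over 12 arrays the change was -0.80 ± 0.36 (limma adjusted p = 1, and 0.651 with the replicate block).

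FN1 encodes fibronectin, which binds integrins and collagen and is laid down early in new matrix. FN1 had signals of 1780, 1000 and 2080 on PAX3-FKHR-ER arrays with 4-OHT, against 2120, 390 and 1090 without it. Within replicates 2 and 3 the array with 4-OHT was the brighter of each pair, in replicate 1 it was the dimmer, and the groups overlapped. FN1 rose in the paired fit by 1.12 ± 0.14 (SE; limma adjusted p = 0.00864), and over 12 arrays the change was 0.67 ± 0.77 (limma adjusted p = 1, and 0.651 with the block). Its 4 other tested probe sets changed by 0.85, 0.81, 0.86 and 0.35 in the paired fit, with limma adjusted p = 0.0186, 0.0825, 0.121 and 0.687. The probe set shown is of the array maker's _x_at kind, which can also bind related transcripts.

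The other glycoproteins did not pass. SPARC, a collagen-binding protein also called osteonectin, had signals of 2200, 1390 and 1240 with 4-OHT, against 2370, 1500 and 1480 without it on PAX3-FKHR-ER arrays, lower in each pair. Its second tested probe set was lower in replicates 2 and 3 and higher in replicate 1 (0.08, -0.94 and -0.41). Thrombospondins THBS1 and THBS2, which act on cell adhesion and vessel growth, and POSTN (periostin) had paired changes of -0.36, -0.06 and -0.12. POSTN separated replicates more than treatments, with 787 in replicate 1, against 37.5 and 52.3 in replicates 2 and 3 with 4-OHT. Of the 6 glycoproteins, 1 rose and 1 fell in the paired fit.

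**Figure D1:**
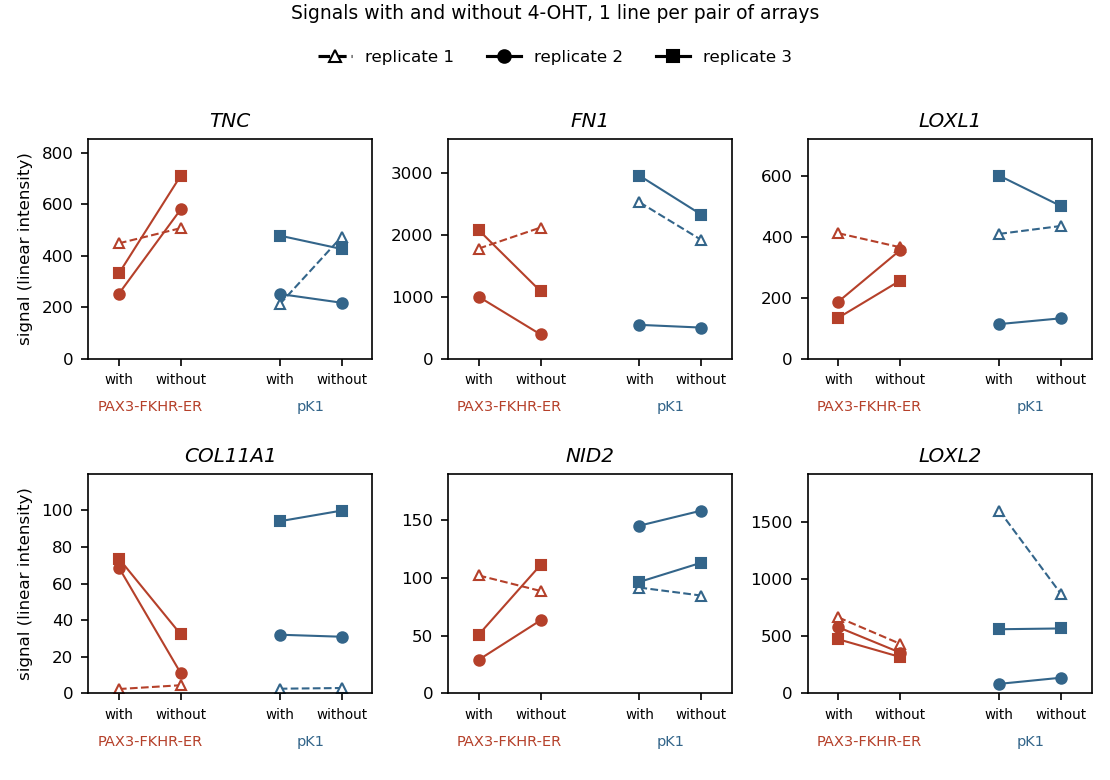
Linear signals of 6 matrix genes with and without 4-OHT; each line joins the 2 arrays of 1 construct and replicate number, PAX3-FKHR-ER on the left and pK1 on the right, with replicate 1 dashed. By the probe sets shown, TNC, LOXL1 and NID2 were lower and FN1 and COL11A1 higher with 4-OHT in PAX3-FKHR-ER replicates 2 and 3. LOXL2 was higher in all 3 PAX3-FKHR-ER pairs.

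The lysyl oxidases did not share a sign. LOXL1, which crosslinks elastic fibres, had signals of 411, 187 and 134 on PAX3-FKHR-ER arrays with 4-OHT, against 365, 356 and 256 without it. The array with 4-OHT was dimmer in replicates 2 and 3 and brighter in replicate 1. LOXL1 fell in the paired fit by 0.87 ± 0.15 log2 units (SE; limma adjusted p = 0.0324), and over 12 arrays the change was -0.53 ± 0.62 (limma adjusted p = 1). LOXL2, which crosslinks collagen IV among others, had signals of 665, 579 and 474 with 4-OHT, against 434, 357 and 319 without it. The groups did not overlap, and the share of all genes without overlap was not counted. The change of LOXL2 did not pass (paired 0.61 ± 0.16, SE, limma adjusted p = 0.141), and its second tested probe set changed by 1.08 (adjusted p = 0.175). LOX, the founding member of the family, had 112, 169 and 191 with 4-OHT, against 90.5, 153 and 101 without it, higher in each pair but with overlap between the groups.

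Among the enzymes that prepare collagen inside the cell, PLOD1 and PLOD2, which hydroxylate collagen lysines, were lower with 4-OHT in all 3 PAX3-FKHR-ER pairs. PLOD1 changed by -0.36, -0.29 and -0.66, and PLOD2 by -0.57, -0.44 and -0.20, in replicates 1, 2 and 3. SERPINH1, the collagen chaperone HSP47, and P4HA1, which hydroxylates collagen prolines, had paired changes of 0.31 and 0.10. Of these 7 folding and crosslinking genes, 1 passed in the paired fit, LOXL1, which fell.

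Fibrillar collagens had changes that pointed both ways. COL11A1, a minor chain that sets fibril width, had signals of 2.43, 68.8 and 73.7 on PAX3-FKHR-ER arrays with 4-OHT, against 4.51, 11.1 and 32.3 without it. It was dim on both replicate 1 arrays and brighter with 4-OHT in the other pairs. Its paired change of 1.27 ± 0.26 missed the threshold (SE, limma adjusted p = 0.0625). The other COL11A1 probe set, under the signal filter, had 1.34, 41.5 and 47.5 with 4-OHT, against 3.92, 44.8 and 28.9 without it. By that probe set, replicate 2 did not rise. COL3A1, whose collagen III is typical of skin and vessel walls, had 1040, 6270 and 5130 with 4-OHT, against 1030, 4620 and 4480 without it. The groups overlapped, since replicate 1 was dim in both. COL5A2 and COL5A1, chains of type V collagen, which starts fibrils, changed by 0.31 and -0.48 in the paired fit, COL1A2 of type I by -0.44 and COL1A1 by -0.35. The second tested probe set of COL1A1 did pass (paired change -0.88, limma adjusted p = 0.039), while the brighter one used here did not (adjusted p = 0.292). By the probe sets used, 0 of 6 fibrillar collagen genes passed.

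Basement membrane genes also went both ways, and none passed. COL4A1 and COL4A2, the main chains of type IV collagen, were slightly higher with 4-OHT in each PAX3-FKHR-ER pair, by 0.30, 0.26 and 0.003 and by 0.18, 0.43 and 0.04. The second tested COL4A2 probe set was slightly lower in replicate 2 (-0.04). COL15A1, a collagen that anchors muscle basement membranes, had 29.8, 42.9 and 23 with 4-OHT, against 35.4, 68.4 and 78.5 without it. It was lower in each pair, with overlap (paired -0.90 ± 0.24, SE, limma adjusted p = 0.14). COL18A1, the precursor of endostatin, had a paired change of -0.02.

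The nidogens, which link laminin to type IV collagen, differed in sign. NID2 had 102, 29.1 and 50.8 on PAX3-FKHR-ER arrays with 4-OHT, against 88.6, 63.2 and 111 without it (paired change -0.87 ± 0.18, SE, limma adjusted p = 0.0664). It was lower with 4-OHT in replicates 2 and 3 and higher in replicate 1. NID1 had 196, 345 and 282 with 4-OHT, against 152, 234 and 226 without it, higher in each pair (paired 0.42, adjusted p = 0.322). The second tested NID1 probe set was lower in replicate 1 (-0.26). Of the laminin chains, LAMB1 was lower in each pair (paired -0.57, adjusted p = 0.0841), LAMA4 was lower in replicates 2 and 3 (paired -0.63, adjusted p = 0.152), and LAMA2, the alpha chain of the adult muscle fibre's laminin, LAMB2 and LAMC1 had paired changes of 0.06, -0.10 and 0.13. HSPG2 (perlecan, a heparan sulphate proteoglycan) changed by 0.08.

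Collagen VI, which ties basement membrane to surrounding fibrils in muscle, did not change as a unit. COL6A1 and COL6A2 were higher with 4-OHT in each PAX3-FKHR-ER pair, by 0.30, 0.04 and 0.12 and by 0.11, 0.19 and 0.23, and COL6A3 had 7.12, 69.9 and 175 with 4-OHT, against 5.17, 90.5 and 377 without it. COL6A3 was lower in replicates 2 and 3 (paired -0.68, limma adjusted p = 0.155). The 5 tested COL6A1 probe sets did not share a sign, with paired changes of 0.08, 0.003, -0.43, -0.13 and -0.19. The second tested COL6A2 probe set was lower in replicate 3 (-0.17).

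Elastic fibre genes had paired changes of -0.05 for FBN1 and 0.20 for FBN2 (fibrillins, which form the microfibrils) and 0.62 for LTBP1, which stores latent TGF-beta in the matrix (limma adjusted p = 0.121). The 3 tested proteoglycans all had paired changes below 0. BGN (biglycan, which binds collagen) had 202, 89.9 and 68.1 with 4-OHT, against 219, 149 and 125 without it, lower in each pair (paired -0.69 ± 0.16, SE, adjusted p = 0.0979). VCAN (versican, a large hydrated proteoglycan) and DCN (decorin, a collagen-binding proteoglycan) changed by -0.19 and -0.07.

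The proteases and their inhibitors held no gene past the threshold. MMP14, a membrane-bound collagenase that activates MMP2, had 275, 300 and 195 with 4-OHT, against 284, 313 and 97.4 without it on PAX3-FKHR-ER arrays. Only replicate 3 was clearly brighter with 4-OHT. MMP2 (gelatinase A) had a paired change of -0.15, and the inhibitors TIMP1, TIMP2 and TIMP3 of 0.11, -0.42 and 0.11. The other tested TIMP3 probe sets had the opposite sign, with paired changes of -0.14, -1.43 and -0.45, and none passed.

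**Figure D2:**
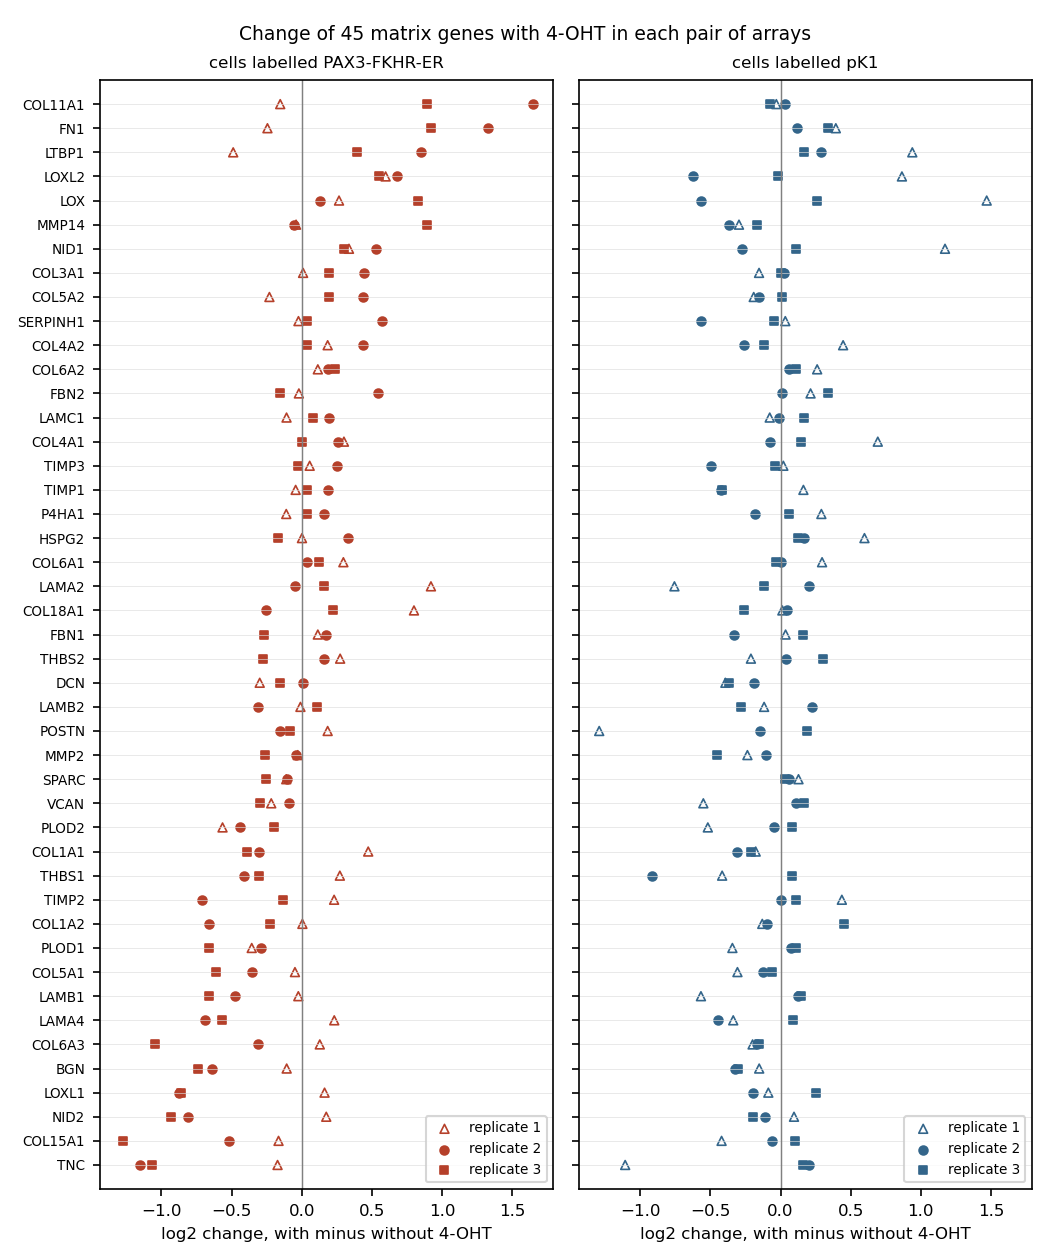
Change with 4-OHT, on the log2(signal + 16) scale, of the 45 tested matrix genes in each pair of arrays, PAX3-FKHR-ER on the left and pK1 on the right; genes run from the highest to the lowest mean change in PAX3-FKHR-ER replicates 2 and 3. TNC and LOXL1 sit at the low end and FN1 and COL11A1 at the high end for replicates 2 and 3, while replicate 1 often lies near 0 or on the other side.

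Counted over the 45 tested members, 0 passed for 4-OHT on the PAX3-FKHR-ER side over 12 arrays, with or without the block, and 0 of all 13329 probe sets did. In the 8 arrays without the block 0 of 45 passed (0% of all genes), with limma adjusted p = 1 for TNC, FN1 and LOXL1. In the paired fit, 3 of 45 passed, 1 higher and 2 lower, where 1.49% of all genes passed (0.8% higher, 0.689% lower). With no adjustment, 19 of 45 had p under 0.05 in the paired fit, 7 higher and 12 lower, against 12.1% of all genes (5.13% higher, 6.92% lower). Over 12 arrays that number was 1 of 45, against 0.455%. The members' median change was -0.05 in the paired fit, beside -0.03 for all genes, so the matrix genes had no shared direction. Their changes were larger in size than usual, with a median absolute change over PAX3-FKHR-ER replicates 2 and 3 of 0.32, against 0.15 for all genes. In all 3 PAX3-FKHR-ER pairs, 8 members were higher (12.8% of all genes were) and 10 were lower (15.6% were). In both pairs of replicates 2 and 3, 16 were higher (24.4% of all genes) and 19 lower (32.6%).

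The paired fit left 2 residual degrees of freedom for 4-OHT, and limma pools the spread over all probe sets to make up for it. Without the intensity trend in that pooling, 0 members passed, and without either PAX3-FKHR-ER pair 0 did. Without pK1 replicate 2 or 3 the count was 12 or 10, and with the mean of each gene's probe sets it was 10, in each case with TNC, FN1 and LOXL1 among them. With no signal filter 1 passed, TNC, and 9 passed when the PAX3-FKHR-ER arrays were fitted alone.

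In cells labelled pK1, the empty vector, 4-OHT changed no matrix gene past the threshold. The PAX3 signals given above went against that label in replicate 1 without 4-OHT. TNC had 211, 251 and 478 with 4-OHT, against 473, 217 and 426 without it, with a paired change of 0.18 ± 0.12 (SE, limma adjusted p = 0.883). FN1 had 2530, 545 and 2960 with 4-OHT, against 1920, 501 and 2330 without it (paired change 0.23, adjusted p = 0.883). LOXL1 had 409, 113 and 600 with 4-OHT, against 435, 132 and 500 without it (paired change 0.03, adjusted p = 0.988). Only in replicate 1 did TNC differ widely between the 2 pK1 arrays, with a change of -1.11 with 4-OHT. That pair also held the widest changes of LOX (1.47), NID1 (1.17) and POSTN (-1.29).

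In the paired fit 0 of 45 members passed for 4-OHT in pK1 cells (0 of all genes did), and 1, TIMP1, had an unadjusted p under 0.05 (4.64% of all genes did). By the probe sets used, the members that moved one way in all 3 pK1 pairs were 7 higher (12.7% of all genes) and 7 lower (17.7%). LTBP1 was higher by 0.94, 0.28 and 0.16, HSPG2 by 0.60, 0.17 and 0.13, and FN1 by 0.39, 0.12 and 0.34. FBN2 was higher by 0.21, 0.01 and 0.34, and TIMP2 by 0.44, 0.004 and 0.11. Some other tested FN1 probe sets were lower with 4-OHT in pK1 replicate 2. DCN was lower in each pair (-0.39, -0.19 and -0.36), as were MMP14 (-0.30, -0.37 and -0.17), MMP2 (-0.24, -0.10 and -0.45), BGN (-0.15, -0.33 and -0.30) and COL1A1 (-0.18, -0.31 and -0.21). With those probe sets, BGN, MMP2 and COL5A1 were lower and COL6A2 higher with 4-OHT in all 6 pairs of both constructs. Other tested probe sets of BGN, COL5A1 and COL6A2 broke this pattern. The share of all genes with it was not counted.

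The difference of the 4-OHT change between the constructs was tested directly, and 0 of 45 members passed in any fit, where 0.0615% of all genes passed in the paired fit. TNC came nearest, with a difference of -1.29 ± 0.17 (SE, limma adjusted p = 0.0622). FN1 had 0.90 (adjusted p = 0.164), LOXL1 -0.90 (adjusted p = 0.212), LOXL2 0.93 (adjusted p = 0.223) and COL11A1 1.29 (adjusted p = 0.304). The fall of TNC and LOXL1 and the rise of FN1 were thus not shown to differ from the changes in pK1 cells. With no adjustment, 12 of 45 had p under 0.05 in the paired fit, against 9.28% of all genes. By the probe sets used, MMP14 was the single member whose 3 PAX3-FKHR-ER changes all lay above the 3 pK1 changes (5.47% of all genes did). SPARC was the single one with all below (5%). Of the other tested MMP14 probe sets, the dimmer showed this pattern. The brighter did not (-0.27, -0.06 and 0.49 in PAX3-FKHR-ER cells, against 0.53, -0.62 and 0.10 in pK1 cells).

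Between the constructs, 0 of 45 members passed with or without 4-OHT in any fit run, where 0.0123% of all genes passed without 4-OHT and 0.172% with it in the paired fit (0.0123% and 0.111% in the same 8 arrays without the block). With no adjustment, 5 of 45 without 4-OHT and 6 of 45 with it had p under 0.05 in the paired fit, against 10.3% and 13.2% of all genes. TNC before treatment had 507, 580 and 711 on PAX3-FKHR-ER arrays, against 473, 217 and 426 on pK1 arrays, all without 4-OHT. It was the single member with all PAX3-FKHR-ER arrays above all pK1 arrays there (2.62% of all genes were; 0 members and 3.35% of genes were the other way), with a paired difference of 1.04 ± 0.23 (SE, limma adjusted p = 0.315). With 4-OHT the difference was -0.25 (adjusted p = 0.693).

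TIMP1, a broad inhibitor of metalloproteases, had 875, 859 and 1040 on PAX3-FKHR-ER arrays with 4-OHT, against 1060, 1140 and 1160 on pK1 arrays with 4-OHT. All PAX3-FKHR-ER arrays were lower, as for 2.2% of all genes (0 members and 2.95% of genes were wholly higher), and the difference over 12 arrays was -0.27 (limma adjusted p = 1), with an adjusted p of 0.553 in the paired fit. Without 4-OHT it had 903, 754 and 1010, against 941, 1530 and 1550 on pK1 arrays. It was lower in PAX3-FKHR-ER at each number, but the groups overlapped, since PAX3-FKHR-ER replicate 3 lay above pK1 replicate 1.

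On the probe sets used, the 3 collagen VI chains averaged lower in PAX3-FKHR-ER cells than in pK1 cells, with and without 4-OHT. None passed. COL6A1 had 896, 416 and 594 on PAX3-FKHR-ER arrays with 4-OHT, against 1090, 671 and 1390 on pK1 arrays with 4-OHT. Each replicate number was lower in PAX3-FKHR-ER by this probe set (paired difference -0.94 ± 0.23, SE, limma adjusted p = 0.197). The other tested COL6A1 probe sets were lower with 4-OHT in replicates 1 and 3. In replicate 2 they were all higher in PAX3-FKHR-ER, with 184 against 71.6 for the brightest of them. LAMA2 had 78.7, 181 and 190 on PAX3-FKHR-ER arrays with 4-OHT, against 32.2, 75 and 87.7 on pK1 arrays with 4-OHT, higher at each number (paired difference 1.05 ± 0.23, SE, adjusted p = 0.173). COL1A2 had 53.3, 199 and 48 on PAX3-FKHR-ER arrays with 4-OHT, against 81.9, 5.62 and 57.2 on pK1 arrays with 4-OHT. Only replicate 2 set the constructs apart, bright in PAX3-FKHR-ER and dim in pK1. With 4-OHT, all 6 fibrillar collagens averaged higher in PAX3-FKHR-ER cells over 12 arrays and 5 of 6 did in the paired fit, with medians of 0.48 and 0.54, beside -0.001 and -0.02 for all genes. The replicate numbers differed: all 6 were higher in PAX3-FKHR-ER cells in replicate 2, where pK1 was dim, 4 of 6 in replicate 1, and 1 of 6 (COL1A1) in replicate 3. The shares of all genes higher at each number were not counted.

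**Figure D3:**
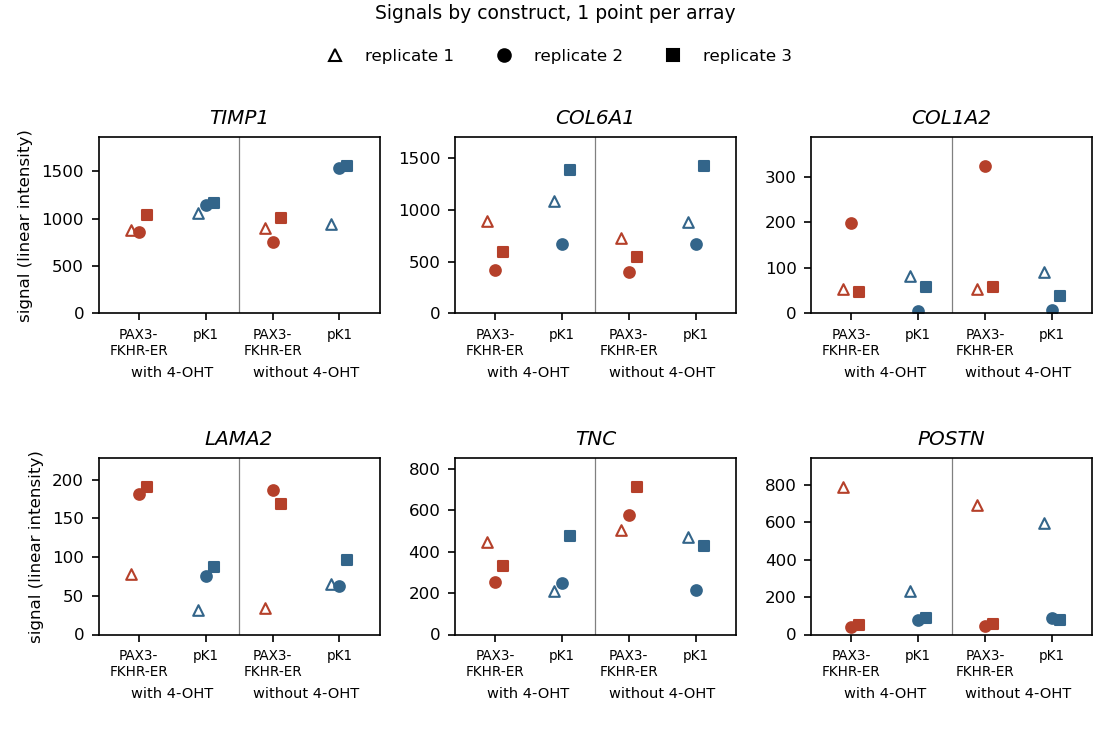
Linear signals of 6 matrix genes, 1 point per array, PAX3-FKHR-ER left of pK1, with 4-OHT on the left of each panel and without it on the right. By the probe sets shown, TIMP1 and COL6A1 were mostly lower and LAMA2 mostly higher in PAX3-FKHR-ER cells. COL1A2 and POSTN were set by single replicate numbers.

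For most matrix genes the pairs of arrays differed more from each other than the arrays with and without 4-OHT differed within a pair. The range of the 6 pair means exceeded the largest change within any pair for 42 of 45 members, against 83% of all genes, and for 42 of 45 against 74.7% within replicates 2 and 3. The median range over the 6 pair means was 1.74 for members and 0.86 for all genes, while the median largest change within a pair was 0.66 and 0.48. The replicate 1 arrays lay wholly above the other 8 for 7 members (10.8% of all genes), COL5A1, HSPG2, FBN1, SPARC, POSTN, VCAN and SERPINH1. They lay wholly below for 9 (11%), COL3A1, COL5A2, COL11A1, COL6A3, LAMA4, LTBP1, THBS2, PLOD2 and P4HA1.

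**Figure D4:**
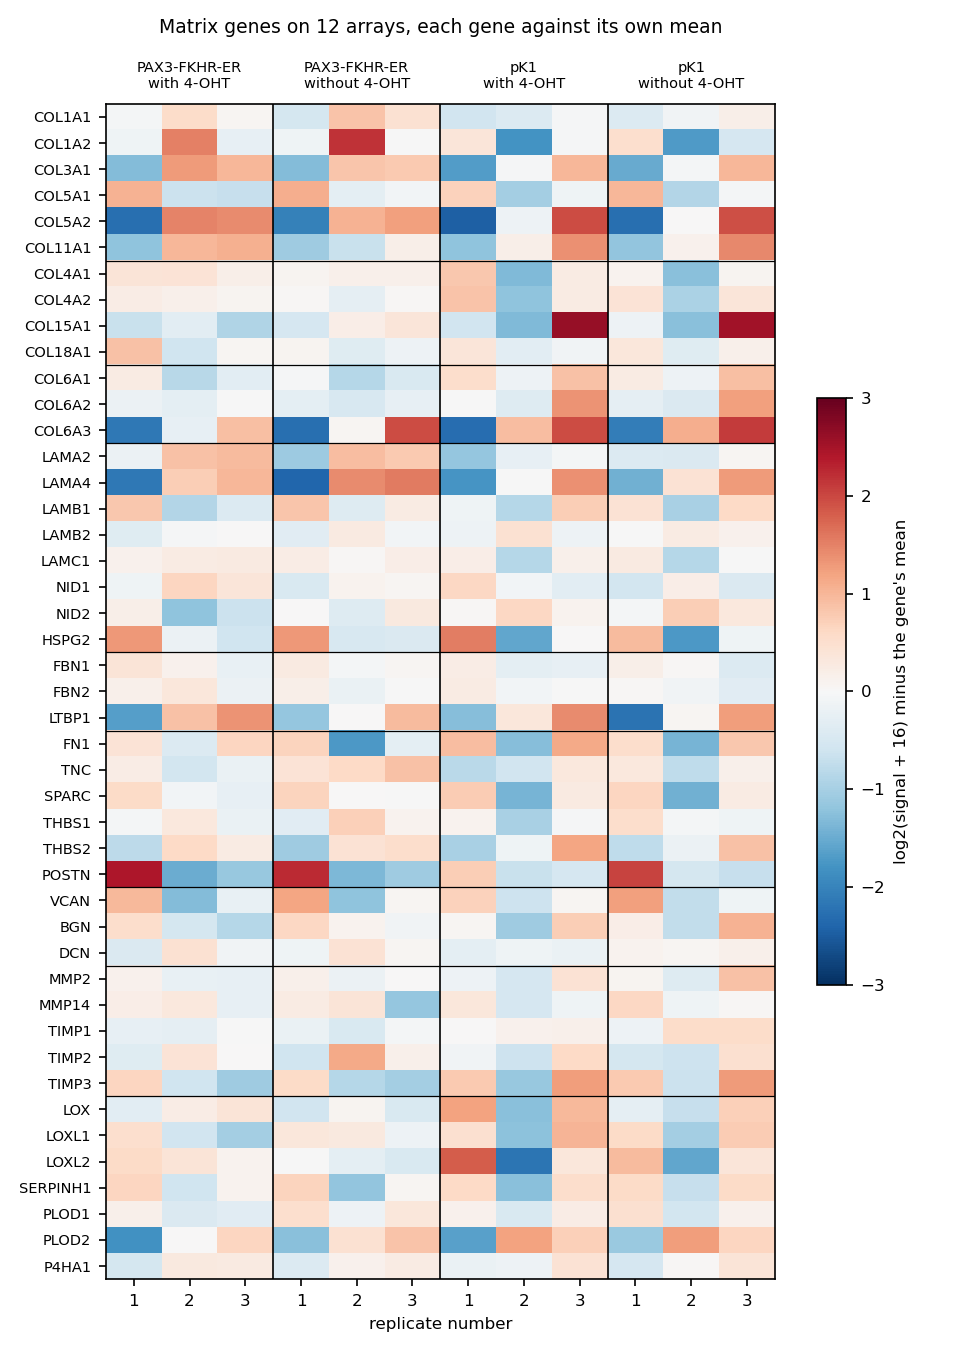
Log2(signal + 16) of the 45 tested matrix genes on 12 arrays, each minus the gene's own mean, with lines between role groups (from the top: fibrillar, basement membrane and other collagens, laminins with linkers, elastic fibre, glycoproteins, proteoglycans, proteases with inhibitors, folding and crosslinking). Columns of the same construct and number resemble each other with and without 4-OHT, and pK1 replicate 2 is low for many genes where pK1 replicate 3 is high.

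Within pK1 cells, replicates 3 and 2 differed in many matrix genes at once. Both replicate 3 arrays were above both replicate 2 arrays for 34 of 45 members, against 32% of all genes, and below for 4 (LAMB2, NID1, NID2 and PLOD2), against 36.9%. The replicate 3 pair mean was more than 1 log2 unit above that of replicate 2 for 25 members, against 6.73% of all genes, and more than 1 below for 0, against 5.38%. The contrast sets 2 arrays of 1 replicate number against 2 of another, and no test was run on it. COL15A1 had 431 and 399 in pK1 replicate 3 (with and without 4-OHT), against 13.2 and 14.5 in replicate 2, a difference of 3.85. FN1 had 2960 and 2330 in replicate 3, against 545 and 501 in replicate 2, a difference of 2.30. LOXL1 had 600 and 500, against 113 and 132, and TIMP3 416 and 427, against 66.8 and 101. Collagen crosslinking, fibrillar, type IV and type VI collagen genes thus ran high together in replicate 3 and low in replicate 2.

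In PAX3-FKHR-ER cells replicate 3 was more than 1 unit above replicate 2 for 3 members (COL6A3, FN1 and VCAN, against 1.26% of all genes) and more than 1 below for 2 (COL1A2 and MMP14, against 2.03%). Some markers of other cell types moved with the pK1 contrast, and others did not. The fibroblast list (7 of 8 genes with a probe set, 3 past the filter, none at 0) had summed signals of 1890 and 1860 in pK1 replicate 3, against 337 and 453 in replicate 2. On the other 8 arrays it ranged from 185 to 911. S100A4 had 1100 and 1160, against 95.3 and 78.9, and THY1 511 and 463, against 79.9 and 166, so that S100A4 made up most of each replicate 3 sum. TWIST1 ran the other way, with 15.3 and 10.9 in replicate 3, against 65.3 and 55.1 in replicate 2, and PDGFRA was dim in both, with 6.16 and 20.6, against 3.13 and 21.6. FAP was mixed, with 28.7 and 20.3, against 8.18 and 33. In the epithelial list KRT18 was brighter in replicate 3 (1100 and 1050, against 742 and 645). KRT8 was not (35.6 and 47.8, against 39.2 and 57.5). Some muscle genes moved with the pK1 contrast too. CHRNA1 had 1950 and 1970 in pK1 replicate 3, against 245 and 344 in replicate 2, and DES 862 and 710, against 85.6 and 89. The part of these differences in the matrix genes was not tested.

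**Figure D5:**
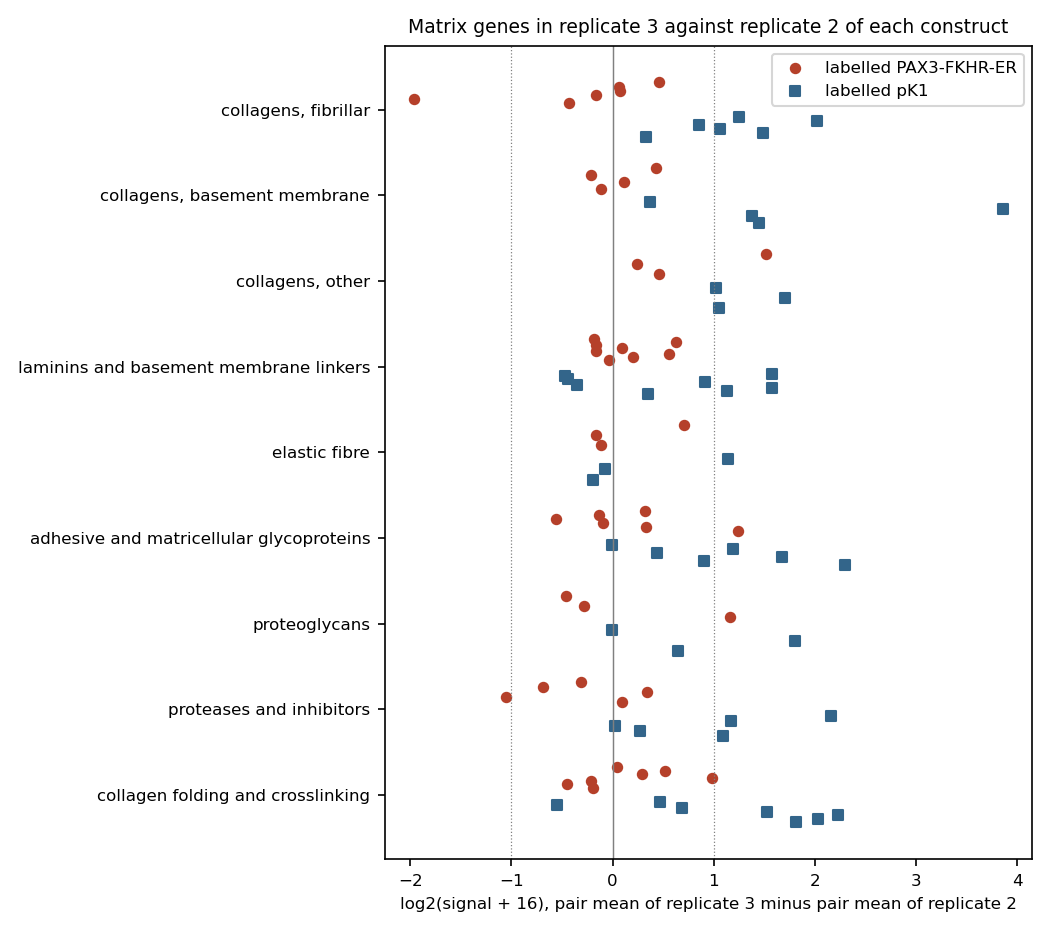
Difference between replicate 3 and replicate 2, as pair means on the log2(signal + 16) scale, for each tested matrix gene by role group; circles are PAX3-FKHR-ER cells, squares pK1 cells, and dotted lines mark 1 log2 unit either way. In pK1 cells 25 members lie right of the upper line and 0 left of the lower, against 3 and 2 in PAX3-FKHR-ER cells.

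A wider list of 123 other matrix genes was read in the same way, of which 76 were tested, 37 were under the filter and 10 had no probe set. None passed over 12 arrays. In the paired fit for 4-OHT in PAX3-FKHR-ER cells, 3 rose and 2 fell, beside 0.8% and 0.689% of all genes, with a median change of -0.07. SERPINE2, a secreted inhibitor of serine proteases also called protease nexin 1, had 700, 2680 and 2250 with 4-OHT, against 502, 689 and 1000 without it (1.55 ± 0.17, SE, limma adjusted p = 0.00808). It was higher with 4-OHT in each pair, and in each pK1 pair too (2140, 671 and 1950 with 4-OHT, against 671, 629 and 1590 without it). P3H2, a collagen prolyl 3-hydroxylase, had 98.5, 1030 and 628 with 4-OHT, against 65, 453 and 176 without it (1.45 ± 0.19, SE, adjusted p = 0.00919). In pK1 cells P3H2 had 460, 60.4 and 235 with 4-OHT, against 127, 40.8 and 250 without it, with the widest gap in replicate 1. ADAMTS5, which cuts aggrecan and versican, had 42.2, 277 and 314 with 4-OHT, against 62.1, 131 and 127 without it (1.10 ± 0.17, SE, adjusted p = 0.0177). It was higher in replicates 2 and 3 and lower in replicate 1.

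RECK, a membrane-anchored inhibitor of metalloproteases, had 242, 291 and 267 with 4-OHT, against 201, 650 and 581 without it (-1.10 ± 0.13, SE, limma adjusted p = 0.00808). COL5A3, the third chain of type V collagen, had 53.6, 19.6 and 79.2 with 4-OHT, against 57.9, 103 and 219 without it (-1.52 ± 0.19, SE, adjusted p = 0.00892). Both were lower in replicates 2 and 3. Both were also lower in each pK1 pair, RECK with 249, 172 and 187 with 4-OHT, against 332, 217 and 216 without it, and COL5A3 with 68.9, 31.6 and 199, against 115, 46.6 and 257. None of the 5 passed in pK1 cells, with adjusted p of 0.862 to 0.988, nor in the difference between constructs, with adjusted p of 0.123 to 0.206.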

How the data were processed

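RNA from 12 samples was measured on Affymetrix U133A arrays. The authors deposited 1 linear intensity per probe set and array. The submitters' processing notes name GCOS and MAS5, without versions. They were used as deposited, with no detection calls and no further scaling. Of 22283 probe sets, 68 were controls and were left out; 19065 of the rest had 1 gene symbol, 1043 several and 2107 none. The 40% with the lowest mean signal (under 36.7) were left out of the tests.

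Groups were fitted as log2(signal + 16) with limma 3.58.1 in R 4.3.3 (lmFit, eBayes with an intensity trend), over 12 arrays without a block, two-sided, with Benjamini-Hochberg adjustment within each of 5 contrasts. The block and the fits to replicates 2 and 3 were alternatives, with 8 further settings and each array left out in turn. Same-numbered samples had deviations from the group means that correlated at 0.703 to 0.851 with and without 4-OHT, and at 0.152 to 0.685 between constructs. The design text treats populations with and without 4-OHT, and the numbers were taken to pair arrays since every correlation was over 0.1. That low bound does not show that same-numbered arrays were matched between constructs, where replicate 2 had 0.152 without and 0.182 with 4-OHT. Scripts were tested on simulated data. Figures used matplotlib 3.10.9 in Python 3.11.15.

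Members and lists were chosen with earlier results of these data known. The rule for members named with a test took those with all 3 pairs moving 1 way (up to 5 each way), those whose groups of constructs did not overlap, and those past the threshold in a 12-array or the paired fit. Tests given for other members, among them COL11A1, NID2, LAMA4 and COL6A3 for 4-OHT and COL6A1 and LAMA2 between constructs, were chosen after their values were seen. RefSeq promoter windows are from GRCh38.p14, and the array files name no build.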

Additional observations from a re-analysis of the deposited data

Results flagged for a closer look

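SPARC drew attention because its 4-OHT change was negative in all 3 PAX3-FKHR-ER pairs (-0.11, -0.11 and -0.26) and positive in all 3 pK1 pairs (0.13, 0.06 and 0.03). The difference of the mean changes was -0.23 on the log2 scale, and the test of that difference did not pass (limma adjusted p = 1 over 12 arrays, 0.926 with the replicate block and 0.709 in the paired fit to replicates 2 and 3). SPARC was 1 of 45 tested members with this pattern, and the share of all genes with it was not counted. Its second tested probe set did not show it, with changes of 0.08, -0.94 and -0.41 in PAX3-FKHR-ER cells and -0.12, -0.19 and -0.07 in pK1 cells.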

How the results depend on the processing

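Members past the threshold for 4-OHT in PAX3-FKHR-ER cells numbered 0 over 12 arrays, 0 with the replicate block, 0 in replicates 2 and 3 without the block and 3 in the paired fit to them. The settings tried on the paired fit were chosen after seeing the data. From 3, its count moved to 1 with no signal filter, 10 with the mean of a gene's probe sets, 0 with no intensity trend and 9 with only the PAX3-FKHR-ER arrays, and ran from 0 to 12 with 1 pair of arrays left out. In pK1 cells, in the difference and between constructs the count was 0 under every setting run. With 1 array left out, signs turned for PLOD2 (-1.04 to 0.32) and COL3A1 (-0.49 to 1.03) in PAX3-FKHR-ER cells, for HSPG2 (-0.47 to 1.07), FN1 (-0.40 to 1.05), BGN (-0.71 to 0.23), LTBP1 (-0.50 to 1.24), TIMP2 (-0.14 to 0.54) and MMP2 (-0.55 to 0.081) in pK1 cells, and for the SPARC difference (-0.86 to 0.40). The causes were not tested. A fit of only the groups compared gives no value for the difference between constructs. Dim probe sets such as COL11A1 on replicate 1 arrays limit what can be read there.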
